A study of Pseudochlorella pringsheimii with 2 samples.

Results

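Heat shock proteins are chaperones, proteins that keep other proteins from clumping or help them refold. Small heat shock proteins, the hsp20 family, bind unfolding proteins without using ATP and hold them in a state that can be refolded. Members of the hsp100 family are large ATP-driven ring proteins, several of which pull single proteins back out of aggregates. Heat shock transcription factors bind short repeated elements in the promoters of chaperone genes and switch them on when unfolded protein builds up, in heat and in several other stresses.

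The transcripts described here are the 5 contigs, of 13566 with deposited values, that carry the name of a heat shock protein or of a heat shock factor in the study's list of transcripts past 4-fold. Heat shock contigs with smaller ratios may be among the contigs that carry no name in the sources used here. The 5 contigs are 3 small heat shock contigs, namely hsp20 (contig 86306, 939 bp), the class I heat shock protein (86715, 1089 bp) and heat shock protein 17 (86717, 746 bp), 1 contig of the hsp100 family (84262, 2508 bp), and heat shock transcription factor 1 (72405, 1239 bp). The 5 were picked by their contig number from a list of transcripts that the study drew up because they were past 4-fold between these same libraries. Their ratio between the strains is therefore given as a description and was not tested. No other contig of the pathway (Hsp40, Hsp60, Hsp70 or Hsp90) is named in the sources used here. All 3 small contigs were annotated from a match to the same database protein, so it is not known whether they are separate genes, and the sources used here do not say how reads fitting more than 1 of them were counted. Contig sequences were not analysed here, so the protein names rest on the annotation by the study and could not be checked.

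RNA was sequenced from 2 strains of the unicellular green alga *Chlorella ellipsoidea* (named *Pseudochlorella pringsheimii* in the sample record), both derived from strain IGDB-1. The GmDof4 library came from strain Dof4-1, which carries the soybean transcription factor GmDof4 behind the *Ubiquitin* promoter, and the CK library came from line CK-1, which carries the pCK vector that lacks the GmDof4 cassette. Both strains had been electroporated, selected on 30 mg/L G418 through the *npt*II marker, and then grown mixotrophically without antibiotic in Endo medium for 120 h at 25°C under 100 μmol photons per m2 per s, with no heat treatment named. Each strain is a single transformed line, and its 3 parallel cultures were pooled into 1 RNA sample, which leaves 1 library on each side and no replicate check on any difference. The GmDof4 transcript was not measured here, so the strain labels were not checked against it. The libraries held 14589660 (GmDof4) and 14823559 (CK) counted reads.

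In the CK strain the 5 contigs fell into a higher and a lower group. The hsp100 contig had 4627 reads in CK, or 124 RPKM (reads normalised to 1 kb of contig and to 1000000 counted reads), with a 95% interval of 121 to 128 that covers counting error only. For the class I heat shock protein there were 1670 reads and 103 RPKM (98.5 to 109), and heat shock protein 17 had 1030 reads and 93.1 RPKM (87.5 to 99.0). These 3 levels lay 4.12 to 5.51 times above the median contig of that library, 22.6 RPKM. The factor, with 436 reads and 23.7 RPKM (21.6 to 26.1), and hsp20, with 302 reads and 21.7 RPKM (19.3 to 24.3), lay close to that median. In the order of the levels in CK only the factor and hsp20 could not be told apart by their counts, with hsp20 at 0.914 times the level of the factor (0.787 to 1.06).

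In the GmDof4 strain every one of the 5 contigs was higher, and the order of the levels was different. The class I contig led with 13594 reads, or 856 RPKM (841 to 870). The hsp100 contig came next per length with 777 RPKM (768 to 786), although its 28433 reads were the most of any contig in that library. In CK the most reads, 27112, belonged to another contig, 68487. Heat shock protein 17 reached 5011 reads and 460 RPKM (448 to 473). The hsp20 contig reached 3603 reads and 263 RPKM (254 to 272), and the factor 2240 reads and 124 RPKM (119 to 129). All 10 pairs of contigs were resolved by their counts in GmDof4, with 2240 to 28433 reads per contig. Other pairs of contigs were not compared in this way, so nothing particular to the 5 is read from this. The counting intervals do not include uneven coverage along a contig. The class I contig, at 0.831 times the level of hsp100 in CK, stood at 1.10 times that level in GmDof4, and hsp20, level with the factor in CK, stood 2.12 times above it (2.01 to 2.24). The level of the factor in GmDof4 was close to that of hsp100 in CK.

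**Figure D1:**
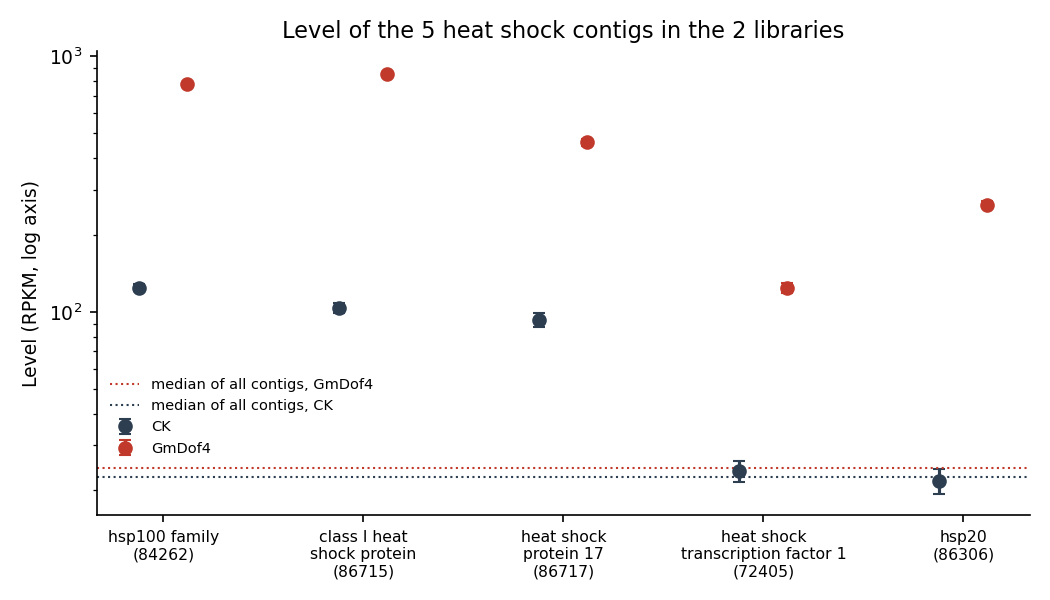
Level of each heat shock contig in RPKM (log axis) in the CK library (dark points) and the GmDof4 library (red points), with 95% counting intervals as bars and the median of all contigs of each library as dotted lines. In CK hsp20 and the factor sit on the median, at 21.7 and 23.7 RPKM, and in GmDof4 the lowest of the 5, the factor, is at 124 RPKM.

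Among all contigs of the CK library the 5 contigs held places from 1656 to 6971. By RPKM the hsp100 contig held place 1656 of 13566, the class I contig 1969 and heat shock protein 17 2161, within the top 16%. The factor was at place 6531 and hsp20 at 6971, on either side of the middle of the list. In GmDof4 the class I contig held place 74 and hsp100 place 96, both in the top 1%, heat shock protein 17 place 246, hsp20 place 608 and the factor place 1576. The hsp20 contig moved up by 6363 places, the most of the 5, and hsp100 by 1560, the fewest. Places count the contigs passed, and contigs are crowded near the median, so a step in place is not proportional to a step in level.

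**Figure D2:**
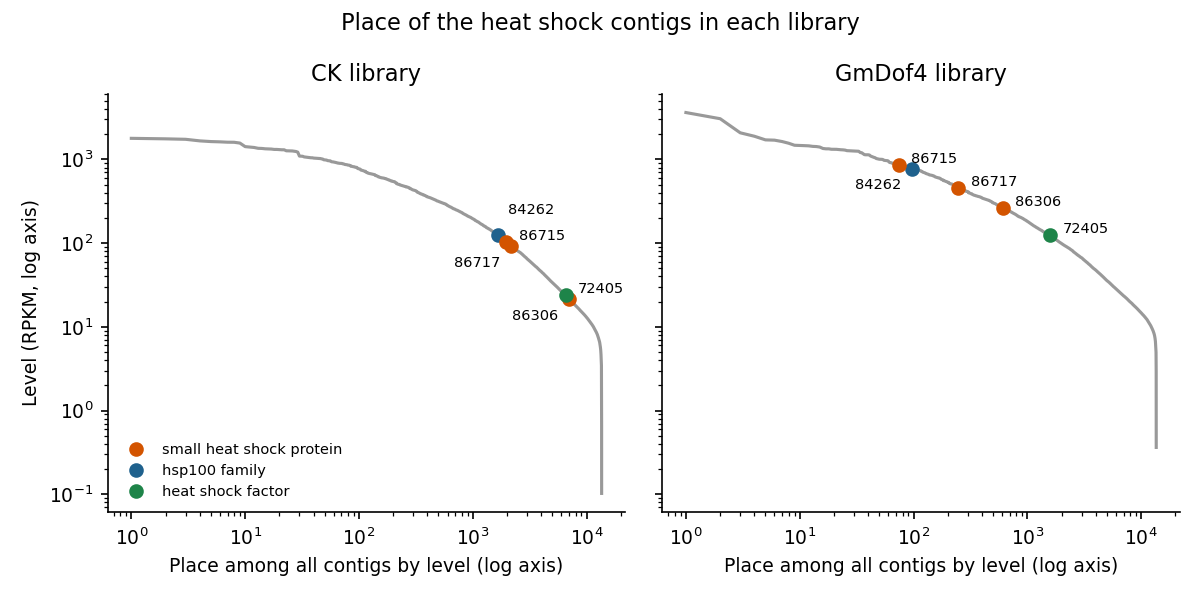
Level in RPKM (log axis) against place among all contigs of the library (log axis; place 1 is the highest level), with the grey line running through all contigs and the heat shock contigs as coloured points. The 5 points move from places 1656 to 6971 in CK to places 74 to 1576 in GmDof4.

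The ratio of GmDof4 over CK was highest for hsp20 and spread widely among the small heat shock contigs. On reads per 1000000 counted reads, hsp20 was 12.1-fold higher in GmDof4, a log2 ratio of 3.60 with a 95% counting interval of 3.43 to 3.77. The class I contig was 8.27-fold higher, a log2 ratio of 3.05 (2.97 to 3.12). The remaining small contig, heat shock protein 17, was 4.94-fold higher and had the lowest log2 ratio of the 5, 2.31 (2.21 to 2.40). The large chaperone hsp100 lay between them at 6.24-fold, a log2 ratio of 2.64 (2.60 to 2.69), and the factor was 5.22-fold higher, at 2.38 (2.24 to 2.54). All 5 were past 4-fold, as the choice of the list required. Of all 13565 contigs with a read, 87 were past 4-fold higher in GmDof4, or 0.641%. The median log2 ratio was 2.64 over the 5 contigs and 0.09 over all contigs. On either side of the 4-fold line, at a log2 ratio of 2, the nearest contigs of the whole table had 2.0002 and 1.99, and the heat shock contig closest to the line was heat shock protein 17.

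**Figure D3:**
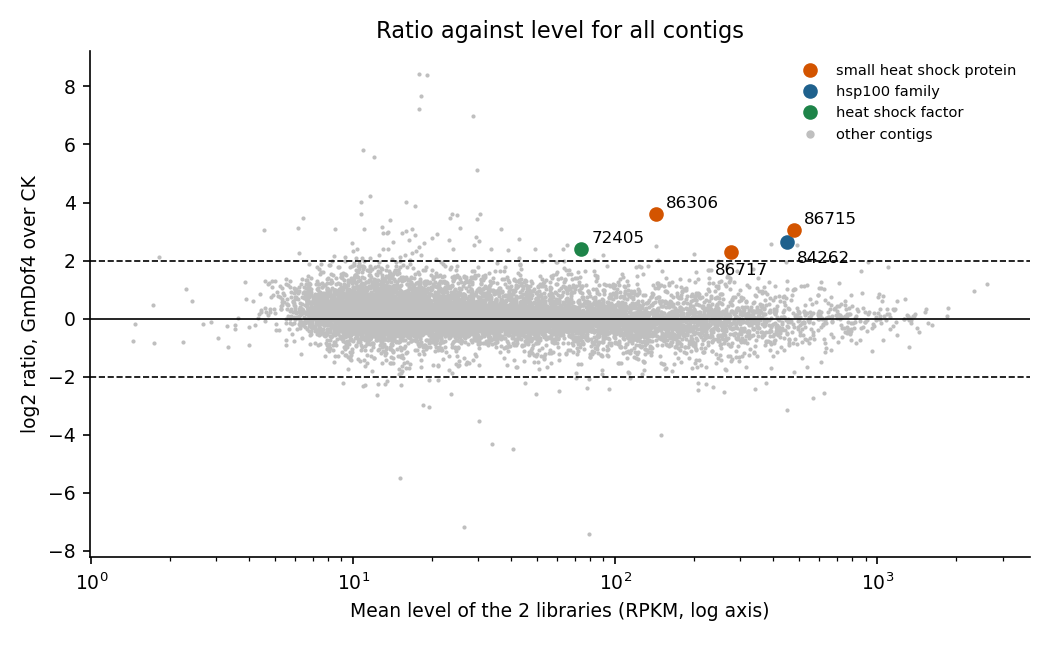
Log2 ratio of GmDof4 over CK against the mean RPKM of the 2 libraries (log axis) for all contigs with a read (grey) and for the heat shock contigs (coloured), with dashed lines at 4-fold. The 5 contigs lie above the upper line, at log2 ratios of 2.31 to 3.60, as their choice requires.

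The fewest reads of a heat shock contig in CK were the 302 of hsp20. Of 7070 contigs with at least that many reads in CK, 14 were past 4-fold higher in GmDof4, or 0.198%, and the 5 heat shock contigs are among these 14 by their choice. A minimum on CK reads, which stand under the ratio, removes contigs higher in GmDof4 more readily than lower ones, so nothing is read from this share. Of the other 9, the study names a pair of sugar transport proteins (56450 and 62118), hexokinase 2 (62217) and a ubiquitin thioesterase (81062), an enzyme class that removes ubiquitin, the tag for protein breakdown. The remaining 5 are not named in the sources used here. The minimum of 302 reads was set from the members after their values were seen. Among the 28 other contigs higher in GmDof4 on the list the members come from, the median level was 4.15 RPKM in CK and 37.5 RPKM in GmDof4. Their levels in CK ran from 1.27 to 114 RPKM, and 3 of the 28 were at or above the lowest heat shock level there. The medians of the 5 heat shock contigs were 93.1 and 460 RPKM.

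As a gain in reads, the increase of the hsp100 contig was the largest of all contigs, from 312 to 1949 reads per 1000000 counted reads, a gain of 1637. The class I contig gained 819 and held place 6 of all contigs by gain. The gains of heat shock protein 17 (274), hsp20 (227) and the factor (124) held places 54, 66 and 190. Added over the 8047 contigs with a gain, the increase came to 133791 reads per 1000000, and the 5 heat shock contigs held 2.30% of it, hsp100 alone 1.22%. This measure favours long and abundant transcripts. The order by ratio, with hsp20 ahead of the class I contig and hsp100, differs from it.

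The spread between the 5 log2 ratios was larger than their counting error for 9 of the 10 pairs. Over all 13565 contigs with a read the log2 ratio had an SD of 0.598. The share of other contig pairs that differ beyond counting error was not calculated, so the 9 of 10 is not read as a trait of these contigs. The exception was heat shock protein 17 against the factor, which differed by -0.079 with an interval of -0.26 to 0.10. The widest gap, 1.29 (1.10 to 1.49), was between hsp20 and heat shock protein 17, contigs matched to the same protein. The class I contig exceeded hsp100 by 0.41 (0.32 to 0.49), while heat shock protein 17 fell short of hsp100 by 0.34 (0.23 to 0.44). These intervals hold for the reads of 2 libraries and do not include the spread between cultures, which was not measured.

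**Figure D4:**
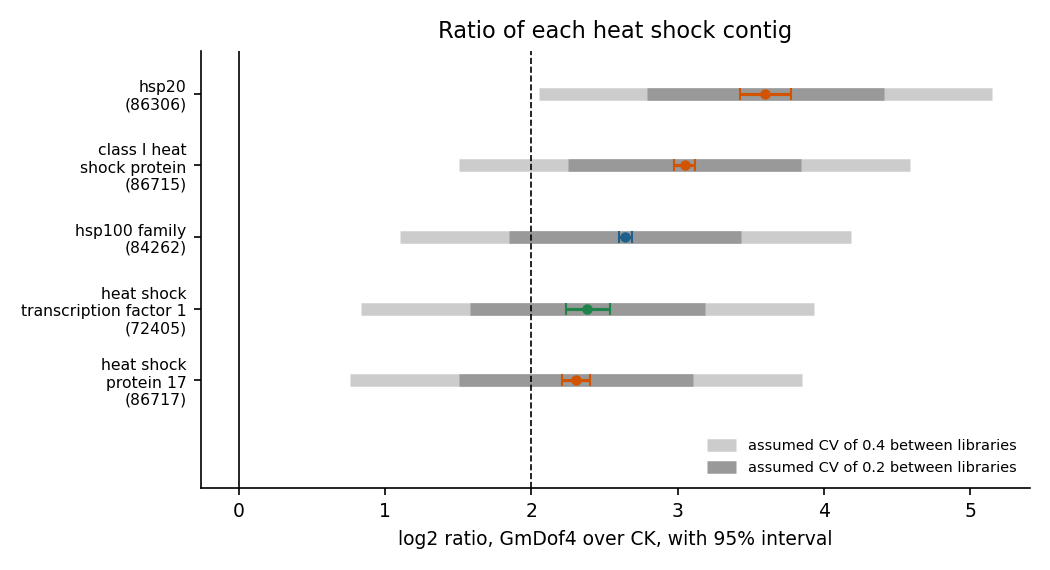
Log2 ratio of GmDof4 over CK for each heat shock contig (points), with the 95% counting interval as thin bars and wider grey bars for the 95% interval with a coefficient of variation (CV) of 0.2 or 0.4 between libraries assumed; the dashed line marks 4-fold, past which the contigs were chosen. For hsp100 the interval widens from 2.60 to 2.69 with counting error alone to 1.10 to 4.18 with 0.4 assumed.

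The spread between cultures can only be assumed here. With a coefficient of variation of 0.4 between libraries the interval of the hsp100 log2 ratio would be 1.10 to 4.18, against 2.60 to 2.69 for counting error alone, and that of hsp20 would be 2.05 to 5.15. These values show only how wide the intervals become. The contigs were chosen for this ratio in these reads, so the intervals are set against no line.

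The small contigs were set against the large chaperone and the factor within each library, where the totals of the libraries cancel. The summed reads of the 3 small contigs over their summed length of 2774 bp gave 73.0 RPKM in CK and 549 in GmDof4. This pooled level is an average over the 3 contigs and not their sum. Added up, their RPKM came to 218 in CK and 1579 in GmDof4, above the 124 and 777 of hsp100. The ratios that follow use the pooled level. Per length, the small contigs stood at 0.587 times the hsp100 level in CK (0.560 to 0.614) and at 0.706 times in GmDof4 (0.694 to 0.719). The balance thus differed by 1.20-fold between the libraries (1.15 to 1.26), a log2 difference of 0.27 towards the small contigs. Its direction was not shared by the small contigs, because on its own hsp20 gave 0.96, the class I contig 0.41 and heat shock protein 17 -0.34. Against the factor, the small contigs stood at 3.08 times its level in CK (2.78 to 3.41) and at 4.43 times in GmDof4 (4.24 to 4.63), a log2 difference of 0.53. Here heat shock protein 17 alone gave -0.079, so this shift also came from hsp20 and the class I contig. The hsp100 contig stood at 5.24 times the level of the factor in CK and at 6.27 times in GmDof4, a log2 difference of 0.26 (0.10 to 0.41).

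The make-up of the 5 contigs changed less than their level. Their summed RPKM was 366 in CK and 2480 in GmDof4, and the small contigs held 59.6% of it in CK and 63.7% in GmDof4. The share of hsp100 was 34.0% and 31.3%. Of their summed reads, the factor took 5.41% (4.92 to 5.92) in CK and 4.24% (4.07 to 4.41) in GmDof4. Within the small contigs the class I contig held most reads in both libraries, 55.6% of 3002 in CK (53.8 to 57.4) and 61.2% of 22208 in GmDof4 (60.6 to 61.9). Heat shock protein 17 held 34.3% of these reads (32.6 to 36.0) in CK and 22.6% (22.0 to 23.1) in GmDof4, and hsp20 held 10.1% (9.01 to 11.2) and 16.2% (15.7 to 16.7). If the 3 contigs are parts of 1 transcript, their levels should not be added, which was not tested.

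**Figure D5:**
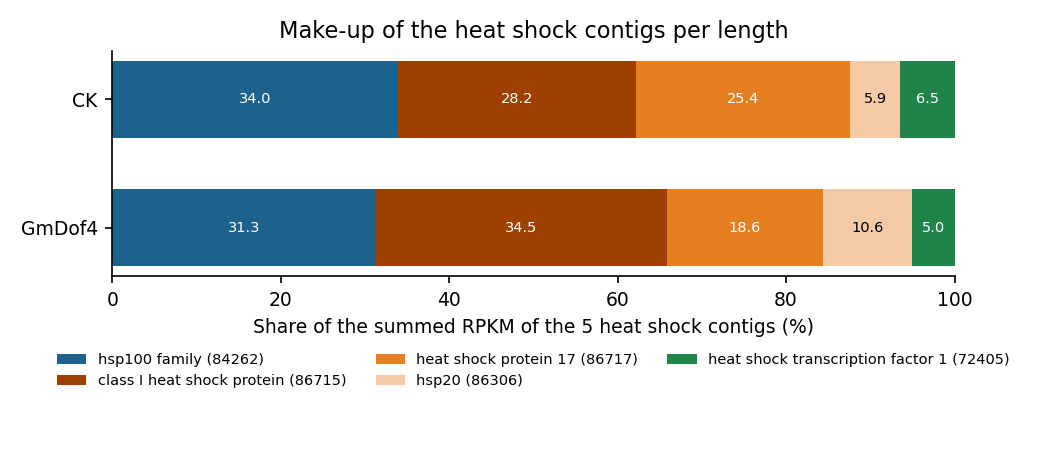
Share of each heat shock contig in the summed RPKM of the 5 contigs (%) in the CK library (upper bar) and the GmDof4 library (lower bar). The share of hsp20 goes from 5.92% to 10.6% and that of heat shock protein 17 from 25.4% to 18.6%, while hsp100 holds 34.0% and 31.3%.

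The contigs most like each heat shock contig in their levels were sought by distance on the plane of log2 RPKM in GmDof4 and in CK, over the 2 libraries, so that a distance of 1 is a 2-fold difference in one of them. For the class I contig the nearest of all contigs was hsp100, at 0.30. For heat shock protein 17 and the factor it was contig 89387, at 0.24, and contig 66124, at 0.30, both without a name in the sources used here. The named contig nearest to hsp100 was the sugar transport protein 56450, at 0.24, with 673 RPKM in GmDof4 and 114 in CK, and it was also the named contig nearest to heat shock protein 17, at 0.62. The factor had the ubiquitin thioesterase 81062 as its nearest named contig, at 0.49, with 92.3 and 20.1 RPKM. The hsp20 contig stood by itself, since its nearest contig of all, hexokinase 2 (62217), was at 0.99, with 241 RPKM in GmDof4 but 42.8 in CK. With only 2 libraries, many contigs can share a pair of levels, and these distances say no more than that.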

How the data were processed

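The authors assembled single-end reads of 3 libraries with SOAPdenovo, mapped them with BWA at default parameters to contigs of at least 300 bp and counted reads per contig; the sources used here name no versions. The deposited counts are whole reads without normalization. The deposited RPKM values, made by the authors, equal the reads divided by contig length (read from the contig name) and by the library total, with a largest difference of 5e-12. The 5 contigs, the lists and the comparisons were chosen with earlier results of these data known. The rule for contigs named in the text took these 5, the most abundant contig of each library by reads, and for each of the 5 the contig nearest in level among all contigs and among those the study names. Contig 62118 and the contigs next in number to the heat shock contigs were named after their values were seen.

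Log2 ratios of GmDof4 over CK were calculated from reads per 1000000 counted reads in Python 3.11.15. A count of 0 was taken as 3 reads, which concerned no heat shock contig, and no filter on low values was applied. With 1 library per strain no p-value was calculated. All 95% intervals are exact (Poisson for levels, Clopper-Pearson or conditional for ratios, scipy 1.17.1) and cover counting error only; PCR copies are not independent molecules. Intervals with an assumed coefficient of variation used a normal approximation on the log scale. The ratio and its interval were tested on simulated counts drawn with counting error only, which cannot check them against the spread between cultures. Alternatives were TMM scaling (edgeR 4.0.16), median-of-ratios scaling (DESeq2 1.42.0), library totals that leave out the 10 most abundant contigs by reads, centring on the running median of 500 contigs, pseudocounts, contigs of at least 50 reads or 500 bp, contig length less the read length of 80 plus 1, and places by reads. A minimum of 302 reads in CK, a minimum on the reads of both libraries, leaving out hsp20 or hsp100, and single small contigs against hsp100 or the factor were added after the data were examined.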

Additional observations from a re-analysis of the deposited data

How the results depend on the processing

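Under the 7 other scalings and pseudocounts tried the log2 ratios were 3.51 to 3.70 for hsp20, 2.95 to 3.06 for the class I contig, 2.55 to 2.67 for hsp100, 2.29 to 2.40 for the factor and 2.21 to 2.35 for heat shock protein 17, contigs chosen for being past 4-fold in these reads. TMM and median-of-ratios scaling moved the median log2 ratio of all contigs by -0.08 and -0.09. The ratio of the 3 small contigs together, 2.91, was then 2.83 and 2.82, and 2.81 without hsp20. That of all 5, 2.74, was 2.66 and 2.64, and 2.85 without hsp100. With coefficients of variation of 0.1, 0.2 and 0.4 assumed, the hsp100 interval on the log2 scale was 2.24 to 3.04, 1.85 to 3.44 and 1.10 to 4.18. Only the width of the intervals is read from these values. Of all contigs, 125 were past 4-fold in either direction and 1103 past 2-fold. These counts were 80 and 687 with the 9823 contigs of at least 500 bp. With at least 302 reads in CK the contigs past 4-fold numbered 40, with the higher ones going from 87 to 14 and the lower ones from 38 to 26. With at least as many reads over both libraries as the factor, which treats the libraries alike, they numbered 24 of 3202, with 11 higher and 13 lower. A minimum on CK reads alone removes contigs higher in GmDof4 more readily than lower ones, as stated above. The cause of the other moves was not tested.

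The pooled level of the small contigs, an average and not a sum, relative to hsp100 was 0.621 in CK and 0.748 in GmDof4 with the read length taken off each contig. With the class I contig in place of all 3 it was 0.831 and 1.10, and relative to the factor 4.36 and 6.90. The change of the small to large balance between libraries, 0.27 on the log2 scale, was 0.17 without hsp20, 0.96 with hsp20 alone, 0.41 with the class I contig alone and -0.34 with heat shock protein 17 alone. That of small to factor, 0.53, was 1.22 with hsp20 alone and -0.079 with heat shock protein 17 alone. The small contigs thus had no common direction against hsp100. No paired analysis was possible because there is 1 library per strain. Precision is limited by the missing replicates rather than by depth, since the scarcest heat shock value rests on 302 reads.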

Other observations

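Contig 84263, of 554 bp, whose number follows that of the hsp100 contig 84262, is not named in the sources used here, and it was the contig nearest to hsp100 in its pair of levels, at a distance of 0.24. Its 6802 GmDof4 reads and 1184 CK reads gave 842 and 144 RPKM, against 777 and 124 for hsp100. It was higher in GmDof4 by 2.55 on the log2 scale (95% interval 2.46 to 2.64). The value of hsp100 exceeded this by 0.097, with an interval of -0.0038 to 0.197 that includes 0. A contig that lies nearest in both levels must have a similar ratio, so nothing is read from this interval. By level it held place 79 in GmDof4 and 1429 in CK. The sources used here do not say what the order of contig numbers stands for, and whether the 2 contigs belong to 1 transcript was not tested. Among 2059 pairs of contigs with consecutive numbers and at least 302 reads in CK each, the median difference in log2 ratio was 0.322 in size. In 2 of the 11 pairs with a contig past 4-fold both contigs were past it in the same direction. Contigs 84262 and 84263 are themselves 1 of these 2 pairs, so the count is no separate comparison for them.

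The heat shock contigs were chosen past 4-fold and their neighbours in number were not, so lower ratios in the neighbours are no result. The other contigs within 2 numbers of a heat shock contig, apart from heat shock contigs themselves, had lower ratios. The highest of them belonged to contig 86713, which stands 2 numbers before the class I contig, with 1373 GmDof4 reads against 506 in CK and a log2 ratio of 1.46 (1.31 to 1.61). Next to the factor, contig 72404 was at 0.33 (0.21 to 0.45) and contig 72403 at -0.39 (-0.43 to -0.35), with 1040 and 10931 CK reads. Contig 84260, which stands 2 numbers before hsp100, was at 0.11 (-0.01 to 0.24), and contig 86305, next to hsp20, was at -0.04 (-0.69 to 0.60) with as few as 42 reads in GmDof4. The sources used here name none of these 5 contigs.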
